A study of Mus musculus with 10 samples.

Results

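The Hoxc cluster is a run of 9 homeobox genes on mouse chromosome 15, Hoxc4, Hoxc5, Hoxc6, Hoxc8, Hoxc9, Hoxc10, Hoxc11, Hoxc12 and Hoxc13. Its DNA methylation was read here by reduced representation bisulfite sequencing (RRBS), in which MspI-cut, CpG-rich fragments are treated with bisulfite, after which unmethylated cytosines appear as thymine and methylated ones as cytosine. The CpGs were chosen by position, from Hoxc13 to Hoxc4, and by read coverage. Of 1694 CpGs of the cluster listed in any library, 359 had at least 5 reads in all 10 libraries, and these 359 lay between mm9 positions 102750653 and 102871672. Across all autosomes 519795 of 5677744 listed CpGs met the same minimum, so that the cluster kept 21.2% of its listed CpGs and the autosomes 9.15%.

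The 10 libraries came from leukaemic mouse spleens of 4 groups. MLL-AF9 leukaemia, driven by a fusion oncoprotein of the H3K4 methyltransferase MLL (Kmt2a), gave 3 Dnmt3b-knockin and 3 WT libraries of c-kit+ leukaemic cells. The cMyc-Bcl2 leukaemia, in which a growth-promoting transcription factor is combined with a protein that blocks cell death, gave 2 Dnmt3b-knockin and 2 WT libraries, with no c-kit selection in the labels. The knockin is a tetracycline-inducible Dnmt3b allele, Dnmt3b being a de novo DNA methyltransferase, and each knockin comparison asks how methylation differed between leukaemias with and without it. The labels do not say whether the knockin allele was induced in each knockin library. They give neither the age of the mice nor which libraries came from separate primary leukaemias or from transplants, so the p-values measure the spread between these libraries only. No expression was analysed here, so neither Dnmt3b nor the cell type was checked against markers.

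Hox genes encode transcription factors that set position along the body axis, and in blood several of them are active in stem and progenitor cells and fall silent as cells mature. In many tissues where they are silent, their CpG-rich promoters are held by Polycomb complexes with little DNA methylation, while MLL is known to keep active Hox genes on. MLL-AF9 is best known for sustaining genes of the Hoxa cluster together with their cofactor Meis1. Hoxc13 and Hoxc12 lie at the 5′ end of the Hoxc cluster and act in the most posterior structures, hair and nails among them for Hoxc13, and Hoxc4 to Hoxc6 lie at the 3′ end and act further forward, Hoxc6 for example in the thorax. Hoxc8, Hoxc9, Hoxc10 and Hoxc11 lie between, and Hoxc10 and Hoxc11 act in the hindlimb region. The noncoding RNA Hotair is transcribed between Hoxc12 and Hoxc11.

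Positions along the cluster were tied to genes by RefSeq promoter sequences (build GRCm38.p6), which were placed on the mm9 CpG positions by their CpG spacing, with no coordinate taken from the other build. This gave 2 landmarks, shown here because every position in the results is read against them. Hoxc4 was the member found in the promoter table. The other landmark is the promoter of Gm36878, a RefSeq gene, whose promoter overlaps Hoxc9 in that annotation. Both are written 5′ to 3′ on the gene's strand, and capitals mark the CpGs listed in at least 1 library.
Gm36878, chr15:102811445-102811744, minus strand: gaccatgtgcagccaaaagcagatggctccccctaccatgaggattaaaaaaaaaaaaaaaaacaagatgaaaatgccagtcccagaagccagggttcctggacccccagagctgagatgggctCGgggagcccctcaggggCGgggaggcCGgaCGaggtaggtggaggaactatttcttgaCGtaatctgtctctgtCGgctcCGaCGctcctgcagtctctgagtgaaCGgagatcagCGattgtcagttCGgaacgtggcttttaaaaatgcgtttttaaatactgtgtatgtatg
Hoxc4, chr15:102864576-102864875, plus strand: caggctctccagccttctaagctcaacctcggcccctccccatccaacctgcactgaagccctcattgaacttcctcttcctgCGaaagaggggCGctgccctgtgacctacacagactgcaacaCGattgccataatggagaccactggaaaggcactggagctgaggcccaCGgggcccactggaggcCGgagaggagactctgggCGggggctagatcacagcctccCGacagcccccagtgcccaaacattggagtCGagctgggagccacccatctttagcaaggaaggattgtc
Of 13 CpGs in the Gm36878 promoter 11 were listed, and of 9 in the Hoxc4 promoter 8 were listed. Each holds 1 MspI motif, CCGG, which reads the same on both strands and is found at least once in 52.8% of the 32851 promoters of that table. Neither promoter had a CpG with 5 reads in every library. The Hoxc4 promoter had 27 read calls over all libraries, 4 of them methylated, with 0 in all 4 cMyc-Bcl2 libraries, so no methylation level could be compared there. The Gm36878 promoter had 78 read calls, 8 of them methylated, and 0 to 15 in a library. Hoxc5, Hoxc6, Hoxc8, Hoxc9, Hoxc10, Hoxc11, Hoxc12 and Hoxc13 are described by position on either side of the landmarks. In the order of the annotation, Hoxc13, Hoxc12, Hotair, Hoxc11 and Hoxc10 come before the Gm36878 landmark, which Hoxc9 overlaps, and Hoxc8, Hoxc6 and Hoxc5 lie between Gm36878 and Hoxc4.

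The libraries held 14446933 to 46762220 CpG read calls, of which 7685 to 40064 fell in the Hoxc cluster, and the median depth over the 359 CpGs was 15 to 75 reads. PCR reads are not independent molecules, so these depths can overstate the number of molecules counted, and they do not measure the spread between libraries. Methylation of mitochondrial CpGs, a guide to unconverted cytosines, was 0.910 to 3.20%. The share of autosomal read calls on chromosome 15, divided by its median over the 10 libraries, was 0.995 to 1.01 in the MLL-AF9 libraries. In cMyc-Bcl2 it was 1.16 and 0.982 in knockin leukaemias and 0.985 and 1.30 in WT leukaemias, so that 1 library of each genotype stood above the rest.

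Mean methylation of the 359 Hoxc CpGs was higher in every Dnmt3b-knockin library than in any WT library of the same leukaemia. In MLL-AF9 the 3 knockin libraries had 22.9, 22.9 and 16.5%, against 15.4, 14.0 and 12.2% in the 3 WT libraries. The groups did not overlap, and the knockin library nearest to WT lay well below the other pair. In cMyc-Bcl2 the knockin libraries had 28.5 and 25.5%, against 15.3 and 8.94% in the WT libraries. These 4 values fell into separate pairs, with the wider gap between the WT libraries.

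**Figure D1:**
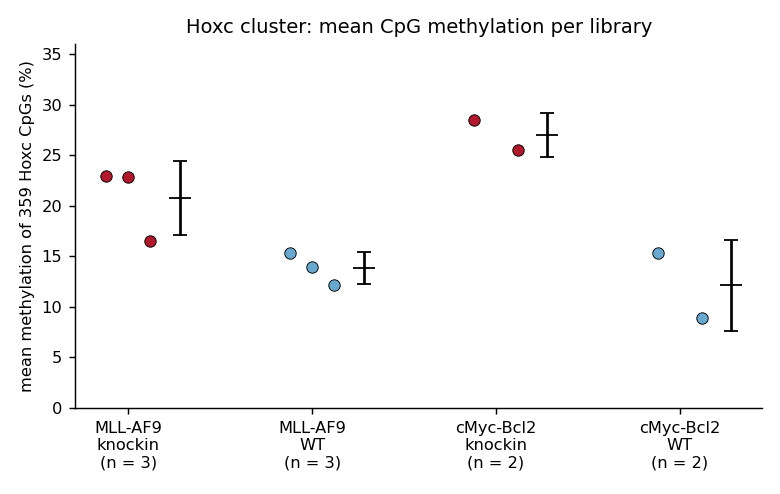
Mean methylation in percent (y axis) of the 359 Hoxc CpGs in each library (points) of the 4 groups, with the group mean and SD (bars). Knockin libraries sit at 16.5 to 22.9% in MLL-AF9 and 25.5 to 28.5% in cMyc-Bcl2, above their WT libraries at 12.2 to 15.4% and 8.94 to 15.3%.

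The group means were 20.8 ± 3.70% in MLL-AF9 knockin and 13.8 ± 1.60% in MLL-AF9 WT leukaemias (SD, n = 3 each), a difference of 6.91 points. They were 27.0 ± 2.13% in cMyc-Bcl2 knockin and 12.1 ± 4.50% in cMyc-Bcl2 WT leukaemias (SD, n = 2 each), a difference of 14.9 points. Over all autosomal CpGs with the same coverage MLL-AF9 knockin leukaemias exceeded WT by 2.37 points, and cMyc-Bcl2 knockin leukaemias exceeded WT by 2.99 points. The difference between the 2 knockin effects was 7.96 points in the cluster and 0.625 points over the autosomes. No p is given for these cluster means, because the region was proposed with results of these data known. Without the 2 libraries of highest chromosome 15 depth, cMyc-Bcl2 knockin replicate 1 and cMyc-Bcl2 WT replicate 2, 1 library of each genotype was left in that leukaemia, with a knockin difference of 10.2 points and a difference between the effects of 3.32 points. The part of chromosome 15 depth in the result was not tested.

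The difference reached both ends of the methylation scale in cMyc-Bcl2. CpGs read as wholly unmethylated numbered 19 and 38 in cMyc-Bcl2 knockin libraries and 100 and 78 in cMyc-Bcl2 WT libraries. They numbered 48, 42 and 48 in MLL-AF9 knockin libraries and 138, 106 and 171 in MLL-AF9 WT libraries. Thus fewer CpGs were free of methylated reads in each knockin library than in any WT library of its leukaemia, while depth also differed. The median reads per CpG were 20, 26 and 37 in MLL-AF9 knockin and 16, 24 and 15 in MLL-AF9 WT libraries, and 54 and 38 in cMyc-Bcl2 knockin and 23 and 75 in cMyc-Bcl2 WT libraries, and the part of depth in the counts at 0 was not tested. CpGs over 50% methylated numbered 69 and 64 in cMyc-Bcl2 knockin libraries and 20 and 14 in cMyc-Bcl2 WT libraries. In MLL-AF9 they numbered 38, 40 and 10 in knockin and 31, 22 and 22 in WT libraries. There the groups overlapped, since MLL-AF9 knockin replicate 3 had the fewest such CpGs of all 10 libraries. The median CpG was at 16.7, 16.1 and 12.9% in MLL-AF9 knockin and 6.67, 6.90 and 3.57% in MLL-AF9 WT libraries, and at 20.6 and 13.8% in cMyc-Bcl2 knockin and 8.33 and 2.70% in cMyc-Bcl2 WT libraries.

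**Figure D2:**
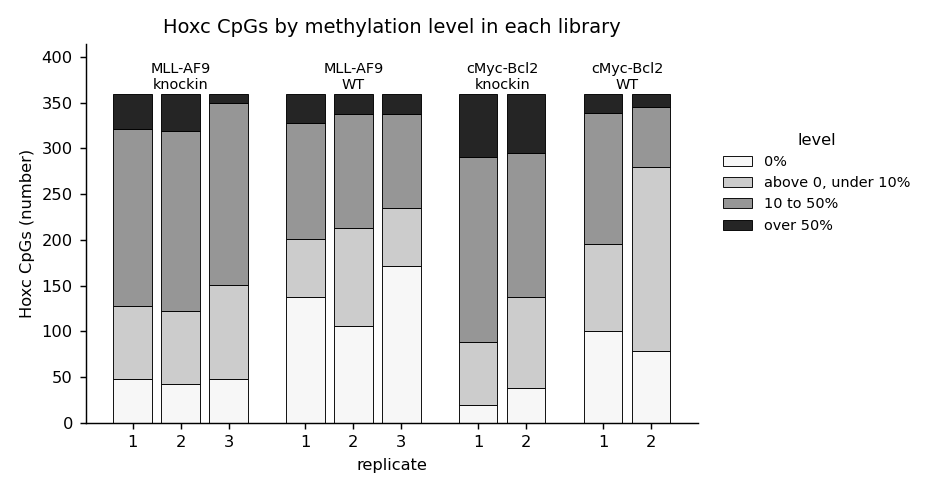
Number of the 359 Hoxc CpGs (y axis) in each of 4 classes of methylation level, stacked for each library (x axis, replicates within the 4 groups). The class over 50% holds 69 and 64 CpGs in cMyc-Bcl2 knockin and 20 and 14 in cMyc-Bcl2 WT libraries, and the class at 0% holds 42 to 48 CpGs in MLL-AF9 knockin and 106 to 171 in MLL-AF9 WT libraries.

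CpG by CpG, the mean of the MLL-AF9 knockin libraries was above that of the WT libraries at 256 CpGs, below it at 99 and equal at 4. In cMyc-Bcl2 the knockin mean was above the WT mean at 285 CpGs, below it at 71 and equal at 3. Most of the cluster thus lay on the side of higher methylation with the knockin in either leukaemia, and the median CpG difference was 6.35 points for MLL-AF9 and 12.1 points for cMyc-Bcl2. In MLL-AF9 the libraries did not overlap with knockin higher at 65 of the 359 CpGs, 18.1%, where 6.23% of all autosomal CpGs did so. They did not overlap with knockin lower at 2 CpGs, where the share of all CpGs was 1.06%. In cMyc-Bcl2, 177 of the 359 CpGs, 49.3%, had both knockin libraries above both WT libraries, against 15.5% of all CpGs. The opposite order held at 16 Hoxc CpGs, against 7.27% of all CpGs. The knockin mean was higher by at least 20 points at 51 CpGs in MLL-AF9 and 123 in cMyc-Bcl2, and lower by at least 20 points at 13 and 14. At the edge of the coverage minimum, the 22 CpGs with exactly 5 reads in their thinnest library averaged 28.8% in cMyc-Bcl2 knockin and 14.4% in cMyc-Bcl2 WT leukaemias, and the 31 left out with 4 reads averaged 29.5% in knockin and 13.7% in WT. In MLL-AF9 the 22 averaged 16.2% in knockin and 6.80% in WT, and the 31 averaged 18.1% in knockin and 15.03% in WT.

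For tests, reads were summed in 1-kb windows with at least 3 such CpGs, which gave 35 windows in the cluster, with 3 to 35 CpGs each, and 42952 on all autosomes. A window was called when its adjusted p was under 0.05 in a quasi-binomial fit over all autosomal windows and its group means differed by at least 10 percentage points. In cMyc-Bcl2, 14 of the 35 Hoxc windows rose in knockin leukaemias and 0 fell, where 5.58% of all windows were called higher and 0.496% lower. On chromosome 15 outside the cluster the share called higher was 6.1%. On simulated data 14.1% of the calls in this comparison were false, more than the threshold allows. The simulation changed 200 windows at each size of difference and gave 576 calls. The false share depends on that setting and was not measured for the real calls. In MLL-AF9, 0 of the 35 windows were called in either direction, with 7 at an unadjusted p under 0.05. Limma on M-values also called 0, with 10 at that level. The share of all windows at an unadjusted p under 0.05 was not counted, here or below. Over all windows 0.0% were called higher and 0.00233% lower in MLL-AF9. Taking the mean knockin effect over both leukaemias, 5 Hoxc windows rose and 0 fell, against 3.06% of all windows called higher and 0.0279% lower. The median window difference was 14.1 points in the cluster and 0.0840 points over all windows for cMyc-Bcl2, and 7.56 points in the cluster and 1.13 points over all windows for MLL-AF9.

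**Figure D3:**
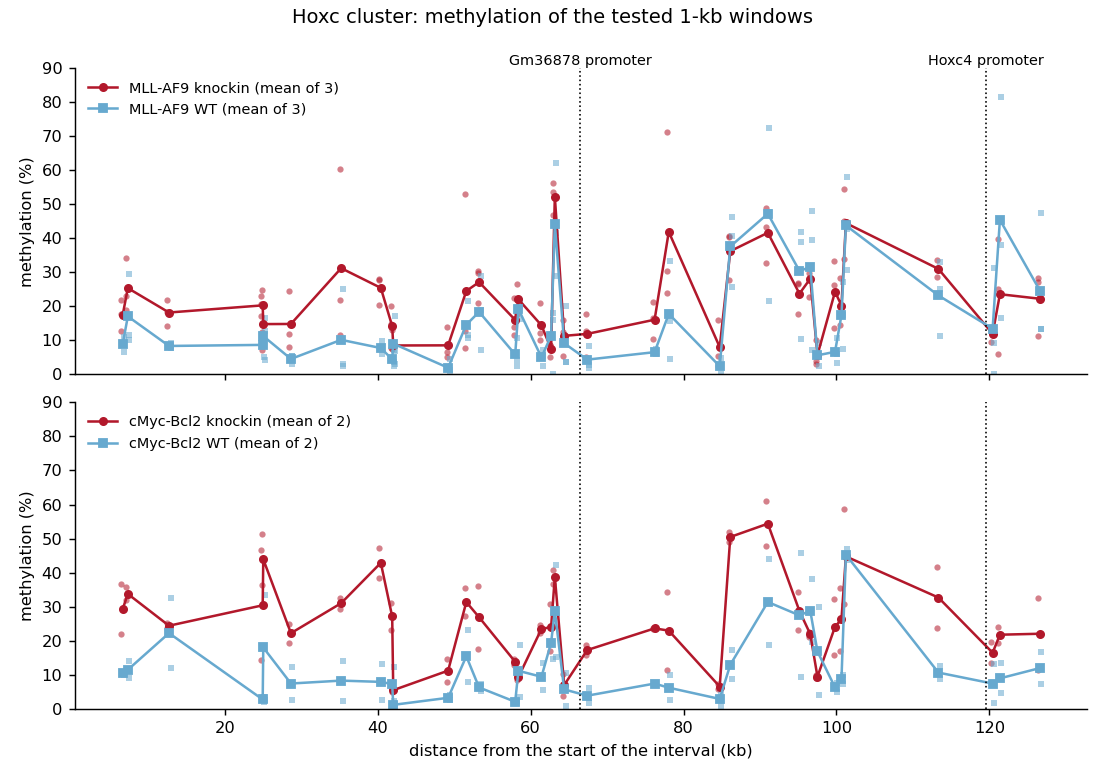
Methylation in percent (y axis) of the 35 tested 1-kb windows against distance in kb from the start of the interval (x axis), with MLL-AF9 above and cMyc-Bcl2 below; lines join group means, small points are libraries and dotted lines mark the promoters of Gm36878 and Hoxc4. The knockin line runs above the WT line in 26 windows of MLL-AF9 and 31 of cMyc-Bcl2.

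The calls in cMyc-Bcl2 rested on few libraries. Without cMyc-Bcl2 WT replicate 2, which leaves 1 WT library that is assumed to vary like the other groups, the difference of the cluster mean was 11.7 points. The calls in the cluster were lost in that fit, and calls over all windows also fell. Without cMyc-Bcl2 knockin replicate 1 the difference was 13.3 points, and without both libraries of high chromosome 15 depth it was 10.2 points. Both fits leave 1 library in a group and had fewer windows called higher, in the cluster and over all windows. Without MLL-AF9 WT replicate 1, 9 of 36 windows were called. In that fit 1949 windows on all autosomes were called higher, against 2396 with all libraries. Limma on M-values called 0 of the 35 windows, 17 of which had an unadjusted p under 0.05, and it called 0 windows in this comparison on all autosomes. A fit of the 4 cMyc-Bcl2 libraries alone called 0 of 47 Hoxc windows, 22 of which had an unadjusted p under 0.05, and 1 window on all autosomes. With a minimum of 20 reads, 3 of 10 windows were called, and of 10444 windows on all autosomes 398 were called higher and 18 lower.

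The windows that rose in cMyc-Bcl2 knockin leukaemias lay on both sides of the Gm36878 promoter. The window with the lowest adjusted p held 30 CpGs at chr15:102785196-102785590, before that promoter. Its methylation was 38.5 and 47.3% in cMyc-Bcl2 knockin libraries and 13.3 and 2.51% in cMyc-Bcl2 WT libraries, from 619 to 3907 reads in a library. The difference was 35.0 points with an adjusted p of 0.00332. In MLL-AF9 the same window had 27.9, 27.8 and 20.5% in knockin libraries and 7.43, 9.96 and 5.86% in WT libraries. The MLL-AF9 groups did not overlap either, but the difference of 17.7 points had an adjusted p of 0.345. The mean effect over both leukaemias, 26.3 points, was called with an adjusted p of 0.0112. Within the window 29 of 30 CpGs had a higher mean in cMyc-Bcl2 knockin than in WT leukaemias, and at 24 of them the libraries did not overlap. In MLL-AF9 26 of the 30 had a higher knockin mean, with no overlap at 10. Of all autosomal CpGs, 15.5% had no overlap with knockin higher in cMyc-Bcl2 and 6.23% in MLL-AF9. The window was picked by its adjusted p in cMyc-Bcl2, so the order of its libraries there is a description. Single CpGs there differed by -14.4 to 78.4 points in cMyc-Bcl2 and by -13.6 to 49.3 points in MLL-AF9. The neighbouring window at chr15:102786782-102786980, with 11 CpGs, had 23.2 and 31.0% in cMyc-Bcl2 knockin and 12.2 and 2.29% in WT libraries, a called rise of 19.9 points (adjusted p = 0.0217).

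**Figure D4:**
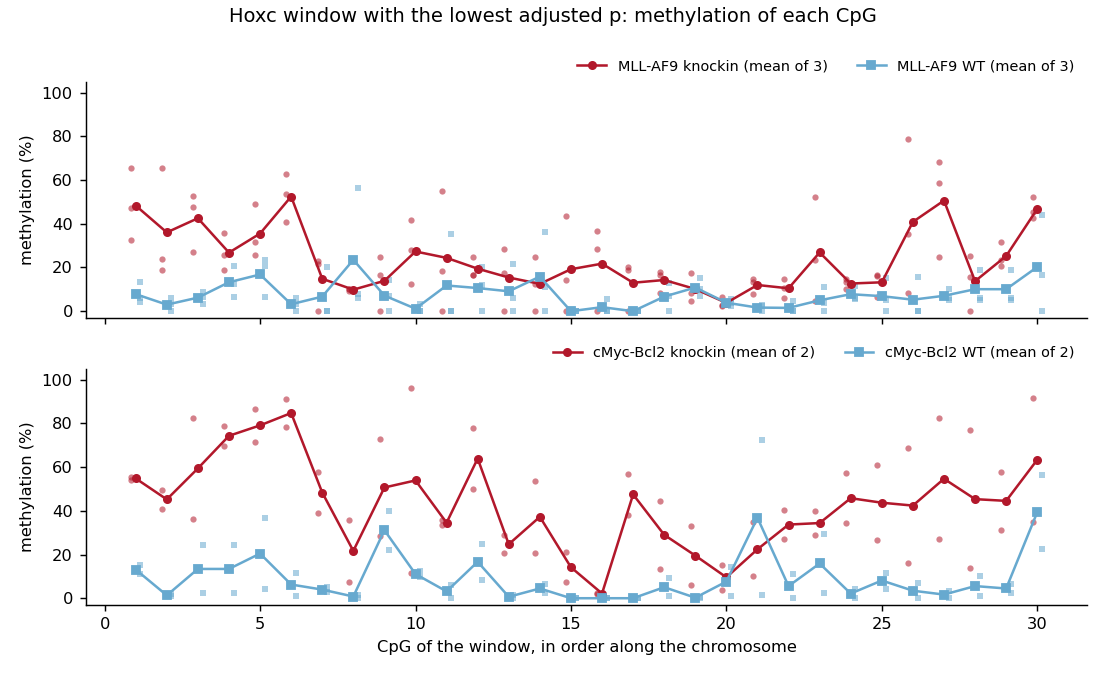
Methylation in percent (y axis) of each of the 30 CpGs of a window, in order along the chromosome (x axis). MLL-AF9 is above and cMyc-Bcl2 below. The window was picked for the lowest adjusted p in cMyc-Bcl2. Lines join group means and small points are libraries; the knockin mean is above the WT mean at 26 CpGs in MLL-AF9 and 29 in cMyc-Bcl2.

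The largest difference in cMyc-Bcl2 was in 6 CpGs at chr15:102831087-102831132, between the Gm36878 and Hoxc4 promoters. These had 49.1 and 51.9% in cMyc-Bcl2 knockin libraries and 8.72 and 17.2% in cMyc-Bcl2 WT libraries, a rise of 37.5 points (adjusted p = 0.00439). The pattern was not seen in MLL-AF9. There the knockin libraries had 40.6, 40.4 and 27.6% and the WT libraries 25.7, 46.3 and 40.7%, so the groups overlapped. The difference between the knockin effects, cMyc-Bcl2 minus MLL-AF9, was 38.9 points here, with an adjusted p of 0.157. Set against MLL-AF9 WT, both cMyc-Bcl2 WT libraries were lower at this window, by 24.7 points on average (adjusted p = 0.0725).

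The other large rises in cMyc-Bcl2 were spread along the cluster. At chr15:102769902-102769983 the 5 CpGs had 14.2 and 46.6% in knockin and 3.53 and 1.94% in WT libraries, a difference of 27.7 points (adjusted p = 0.034) with most of it in knockin replicate 2. The 14 CpGs at chr15:102752058-102752542 had 35.6 and 31.8% in knockin and 13.9 and 9.01% in WT libraries, 22.3 points higher (adjusted p = 0.0169). Both of these lie in the first stretch, before the Gm36878 promoter. The 10 CpGs at chr15:102858225-102858441, the called window nearest to the Hoxc4 promoter, had 23.8 and 41.6% in knockin and 12.6 and 8.65% in WT libraries, 22.0 points higher (adjusted p = 0.0292). The 8 CpGs at chr15:102798169-102798330 had 36.2 and 17.6% in knockin and 7.32 and 5.21% in WT libraries, 20.6 points higher (adjusted p = 0.045). Just inside the threshold were 4 CpGs at chr15:102836003-102836037, with 61.1 and 47.7% in knockin and 44.1 and 18.6% in WT libraries, 23.0 points higher (adjusted p = 0.0494). This window was the one with the highest WT level among those called, and its libraries lay close across genotypes. Just outside the threshold, 21 CpGs at chr15:102845324-102845984 had 35.5 and 17.1% in knockin and 10.05 and 7.39% in WT libraries, with an adjusted p of 0.0829. Of the 14 called windows, the remaining ones differed by 11.7 to 18.9 points.

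In MLL-AF9 none of these windows was called. The largest differences among the windows whose libraries did not overlap were in the 30-CpG window described first, in 18 CpGs at chr15:102844725-102844900 and at chr15:102769902-102769983. The 18 CpGs had 33.2, 26.2 and 13.5% in MLL-AF9 knockin and 10.6, 5.91 and 3.39% in MLL-AF9 WT libraries, 17.6 points higher with an adjusted p of 0.433. All 18 had a higher mean with the knockin, and at 11 of them the libraries did not overlap. At chr15:102769902-102769983 the MLL-AF9 levels were 20.7, 22.9 and 17.2% in knockin and 5.21, 10.7 and 10.1% in WT libraries, 11.6 points higher with an adjusted p of 0.652. These windows were picked from those whose libraries did not overlap, so the order of their libraries is a description.

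Counted without the fit, 11 of the 35 windows had every MLL-AF9 knockin library above every WT library and 0 had the opposite order, where all windows gave 18.9% and 1.41%. In cMyc-Bcl2 the counts were 25 higher and 0 lower, where all windows gave 24.4% and 18.0%. At 10 Hoxc windows the knockin libraries lay above the WT libraries in both leukaemias, which 6.23% of all windows did. The knockin mean was higher in both leukaemias at 23 windows, lower in both at 1, higher only in cMyc-Bcl2 at 8 and higher only in MLL-AF9 at 3. Over all windows 40.6% had a higher knockin mean in both.

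**Figure D5:**
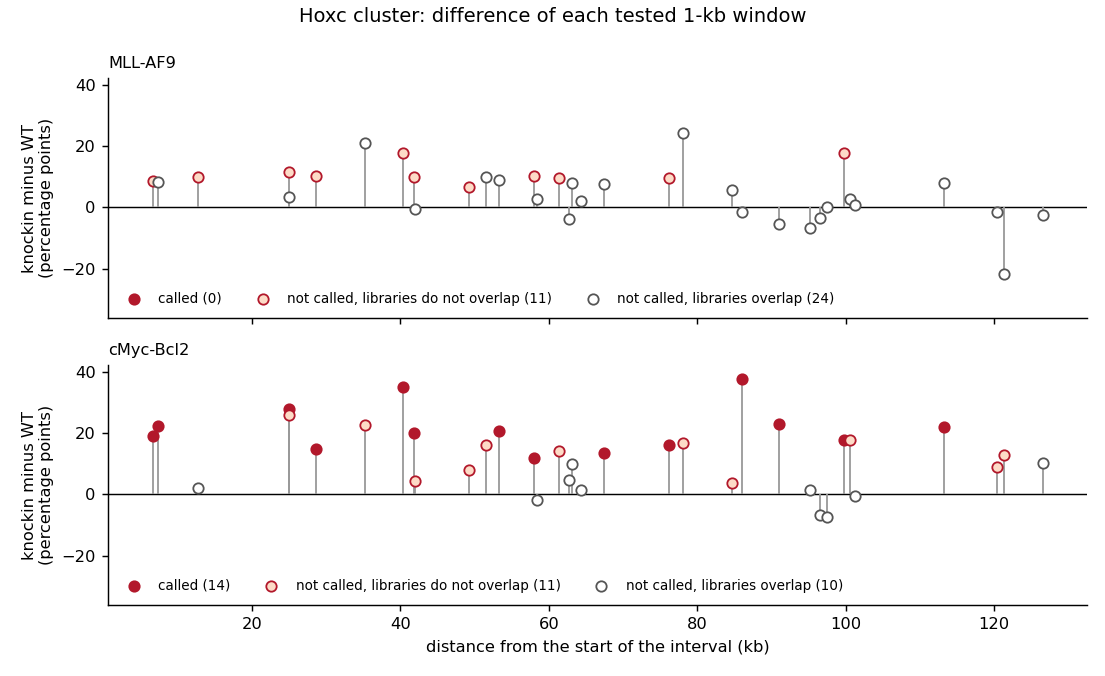
Difference in methylation, knockin minus WT, in percentage points (y axis) of each of the 35 windows against distance in kb from the start of the interval (x axis), for MLL-AF9 (above) and cMyc-Bcl2 (below). Filled points are called (0 and 14 windows), pale points are windows whose libraries do not overlap without a call (11 and 11), and open points are windows whose libraries overlap (24 and 10).

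The 5 windows called for the mean effect over both leukaemias were those at chr15:102785196-102785590, described above, chr15:102844725-102844900, chr15:102751306-102751939, chr15:102821012-102821406 and chr15:102802954-102802995. At chr15:102844725-102844900 the cMyc-Bcl2 levels were 32.3 and 15.9% in knockin and 7.47 and 5.08% in WT libraries, and the mean effect of 17.7 points had an adjusted p of 0.042. The 2 leukaemias were close there, since the difference between their knockin effects was 0.182 points. The 35 CpGs at chr15:102751306-102751939 had 12.8, 21.8 and 17.7% in MLL-AF9 knockin and 6.59, 11.1 and 8.90% in MLL-AF9 WT libraries. In cMyc-Bcl2 they had 36.6 and 21.9% in knockin and 10.9 and 9.90% in WT libraries, and the mean effect was 13.7 points (adjusted p = 0.0301). The 18 CpGs at chr15:102821012-102821406 had little spread in cMyc-Bcl2, with 23.5 and 23.8% in knockin and 7.67 and 7.15% in WT libraries. In MLL-AF9 they had 16.4, 21.4 and 10.4% in knockin and 7.47, 6.31 and 5.86% in WT libraries, and the mean effect was 12.9 points (adjusted p = 0.015). The 5 CpGs at chr15:102802954-102802995 had 14.0, 22.4 and 11.6% in MLL-AF9 knockin and 10.8, 4.23 and 2.56% in MLL-AF9 WT libraries. In cMyc-Bcl2 they had 14.7 and 12.9% in knockin and 1.75 and 2.35% in WT libraries, and the mean effect was 10.9 points (adjusted p = 0.0194). No library of one genotype reached the other genotype's range within either leukaemia at any of the 5 windows. They were picked by a call on these same levels, so the order of their libraries is a description. With all libraries, 5 windows of the cluster and 1316 of all windows were called higher for the mean effect. Among MLL-AF9 knockin libraries, dropping replicate 1 gave 4 and 656, replicate 2 gave 2 and 546, and replicate 3 gave 7 and 1257. Among WT libraries of that leukaemia, dropping replicate 1 gave 3 and 628, replicate 2 gave 3 and 643, and replicate 3 gave 2 and 519. Limma on M-values gave 1 and 218, and a minimum of 20 reads 1 of 10 and 106 of 10444. The mean effect on the cluster was 9.30 points without cMyc-Bcl2 WT replicate 2 and 12.4 points without cMyc-Bcl2 WT replicate 1. It was 8.52 points without both libraries of high chromosome 15 depth.

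By stretch, the knockin mean was higher before the Gm36878 promoter, where the posterior genes Hoxc13 to Hoxc10 lie, and between that promoter and Hoxc4, but the MLL-AF9 libraries overlapped in the second of these. Before the Gm36878 promoter, 177 CpGs averaged 19.8 ± 2.93% in MLL-AF9 knockin and 10.3 ± 2.47% in MLL-AF9 WT leukaemias (SD, n = 3 each). In cMyc-Bcl2 they averaged 28.8 ± 2.41% in knockin and 11.0 ± 2.48% in WT leukaemias (SD, n = 2 each), and 8 of the 19 windows there were called in that leukaemia. This stretch had the larger knockin difference of the 2 long stretches in both leukaemias, at 9.53 points for MLL-AF9 and 17.7 points for cMyc-Bcl2. Between the Gm36878 and Hoxc4 promoters, where Hoxc8, Hoxc6 and Hoxc5 lie, 164 CpGs averaged 21.5 ± 4.65% in MLL-AF9 knockin and 16.2 ± 2.91% in MLL-AF9 WT leukaemias (SD, n = 3 each). There the MLL-AF9 knockin libraries had 24.8, 23.6 and 16.2% and the WT libraries 19.4, 13.7 and 15.6%, so that knockin replicate 3 lay below WT replicate 1. In cMyc-Bcl2 they averaged 25.8 ± 1.28% in knockin and 13.0 ± 6.54% in WT leukaemias (SD, n = 2 each), and 6 of 13 windows were called. After the Hoxc4 promoter 18 CpGs in 3 windows were left, and there the groups overlapped in MLL-AF9, at 23.3 ± 3.17% in knockin and 27.6 ± 12.6% in WT leukaemias (SD, n = 3 each). In cMyc-Bcl2 these averaged 20.5 ± 7.11% in knockin and 14.5 ± 5.76% in WT leukaemias (SD, n = 2 each), with 0 windows called. The groups overlapped there as well, at 25.5 and 15.4% in knockin and 18.6 and 10.5% in WT libraries. The differences between stretches were not tested.

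Some windows of the middle stretch had no higher level with the knockin. At chr15:102846002-102846467 the 6 CpGs had 44.9, 54.4 and 34.0% in MLL-AF9 knockin and 57.9, 42.9 and 30.6% in MLL-AF9 WT libraries. In cMyc-Bcl2 they had 30.7 and 58.8% in knockin and 46.9 and 43.7% in WT libraries. The group means there lay between 43.8 and 45.3%, so this window was about equally methylated in all 4 groups. The 17 CpGs at chr15:102841185-102841958 had 21.2 and 22.7% in cMyc-Bcl2 knockin and 38.0 and 19.5% in WT libraries, and the groups overlapped. Higher levels with the knockin in cMyc-Bcl2 were found both at windows of low and at windows of higher WT level. Classed by the other leukaemia's WT level, which takes no part in the difference, the 16 windows under 10% in MLL-AF9 WT had a median knockin difference in cMyc-Bcl2 of 13.7 points, and the 19 windows at 10% or more had 15.9 points. For MLL-AF9, the 19 windows under 10% in cMyc-Bcl2 WT had a median difference of 9.39 points and the 16 at 10% or more 1.76 points.

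The spread between libraries of 1 group was wider in the cluster than over all windows, which were not matched to it for level or depth. The median range of a window's level within a group was 10.9 points in MLL-AF9 knockin, 14.3 in MLL-AF9 WT, 6.69 in cMyc-Bcl2 knockin and 8.79 in cMyc-Bcl2 WT libraries, against 3.42, 4.55, 2.29 and 2.53 points over all windows in the same groups. Windows that ranged over more than 30 points numbered 4, 7, 1 and 2 in these groups. The widest was a window of 3 CpGs at chr15:102866375-102866384, after the Hoxc4 promoter, with 5.88, 25.0 and 39.8% in the MLL-AF9 knockin libraries and 81.5, 38.1 and 16.7% in the MLL-AF9 WT libraries at 18 to 108 reads.

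Between the leukaemias of 1 genotype, oncogene and c-kit selection cannot be told apart. Among WT leukaemias the cluster mean was 1.72 points lower in cMyc-Bcl2 than in MLL-AF9, where all autosomal CpGs were 0.291 points higher, and among knockin leukaemias it was 6.24 points higher, where all CpGs were 0.916 points higher. The direction in WT turned to 1.46 points higher in cMyc-Bcl2 without cMyc-Bcl2 WT replicate 2 and to 1.47 points higher without the 2 libraries of highest chromosome 15 depth. None of the 35 windows was called in either comparison with all libraries. In WT 1.51% of all windows were called higher and 0.915% lower, and in knockin 4.77% higher and 3.0% lower. Limma on M-values also called 0 in WT. At an unadjusted p under 0.05, a looser rule than a call, there were 7 Hoxc windows in WT and 7 in knockin. The share of all windows under that looser rule was not counted. Leaving out libraries gave a few calls in the cluster in either comparison, while calls were also made over all windows in the same fits. Most of these fits left 1 library in a cMyc-Bcl2 group. Dropping the second knockin library of MLL-AF9, which leaves 2 there, gave 1 call between knockin leukaemias. In that fit 1421 of 43037 windows were called higher and 783 lower. Every cMyc-Bcl2 WT library was above every MLL-AF9 WT library at 1 window and below at 5, where all windows gave 16.6% and 11.3%. That 1 window, 9 CpGs at chr15:102757635-102757735, had 32.5 and 11.9% in cMyc-Bcl2 WT and 9.18, 8.29 and 7.62% in MLL-AF9 WT libraries. At chr15:102866375-102866384 the cMyc-Bcl2 WT libraries had 13.3 and 4.55%, below the MLL-AF9 WT values given above. At the 3 CpGs of chr15:102787001-102787038 they had 0.926 and 1.38%, against 6.86, 2.97 and 17.3% in MLL-AF9 WT libraries. In knockin leukaemias the cMyc-Bcl2 libraries were above all MLL-AF9 libraries at 9 windows and below at 3, where all windows gave 16.1% and 27.6%. The difference between the knockin effects of the leukaemias was called at 0 windows of the cluster, with 4 at an unadjusted p under 0.05. Of all windows 0.00698% were called with the larger effect in cMyc-Bcl2 and 0.0% with the larger effect in MLL-AF9. Limma on M-values called 0 as well, with 2 at an unadjusted p under 0.05. On simulated data the fit found 15% of differences of 20 points between the effects and 51.5% of the largest simulated, so 0 calls cannot show that the effects were alike.

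Promoters of genes that work with Hoxc were placed in the same way. Of 30 other Hox genes 21 were in the promoter table, 14 were placed and 10 lay in a tested window, and 4 of these rose in cMyc-Bcl2 knockin leukaemias and 0 fell, where 5.58% of all windows were called higher and 0.496% lower. With limma on M-values, which called 0 windows on all autosomes in this comparison, these calls were lost, and the fit of the 4 cMyc-Bcl2 libraries alone called 1 window on all autosomes. All 4 belong to the Hoxd cluster, which patterns limbs and the posterior body. The 10 tested genes were of the Hoxa and Hoxd clusters, with no Hoxb gene among them. Hoxd11 and Hoxd13 were tested and not called. Hoxd11 averaged 32.0% in cMyc-Bcl2 knockin and 10.3% in cMyc-Bcl2 WT leukaemias (adjusted p = 0.0627), and Hoxd13 12.6% and 3.53% (adjusted p = 0.252). Hoxd9 averaged 29.5% in cMyc-Bcl2 knockin and 4.45% in cMyc-Bcl2 WT leukaemias (adjusted p = 0.0067), and 13.9% in MLL-AF9 knockin and 9.64% in MLL-AF9 WT leukaemias. Hoxd10 averaged 47.6% in cMyc-Bcl2 knockin and 26.0% in cMyc-Bcl2 WT leukaemias (adjusted p = 0.0255). Hoxd12 averaged 37.8% in knockin and 18.7% in WT leukaemias of that model (adjusted p = 0.00872), and Hoxd3 17.1% in knockin and 4.14% in WT (adjusted p = 0.0126). The median difference of the 10 genes was 14.6 points in cMyc-Bcl2 and 5.56 points in MLL-AF9. The Hoxa genes tested, Hoxa5, Hoxa6, Hoxa11 and Hoxa13, were not called. Hoxa6 averaged 79.9% in MLL-AF9 knockin and 54.3% in MLL-AF9 WT leukaemias (adjusted p = 0.759), and 66.8% in cMyc-Bcl2 knockin and 50.5% in cMyc-Bcl2 WT leukaemias (adjusted p = 0.499). Hoxa5 averaged 69.1% in cMyc-Bcl2 knockin and 91.3% in cMyc-Bcl2 WT leukaemias with an adjusted p of 0.392, and the promoter window of Hoxa13 lay at 1.29 to 2.52% in the 4 group means.

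None of the tested Hox cofactors, Polycomb genes and MLL or trithorax genes was called in any of the 6 contrasts, and with shares of 0.0 to 5.58% of all windows called in a direction, a count of 0 among so few genes is near the background. Of 9 cofactor genes 3 were tested, among them Meis1, and the median difference was 1.31 points in cMyc-Bcl2 and 0.361 points in MLL-AF9. Of 19 Polycomb genes 12 were tested, including the methyltransferase gene Ezh2 and the ring-finger gene Bmi1, with a median of 0.000621 points in cMyc-Bcl2 and 0.470 points in MLL-AF9. Of 12 MLL and trithorax genes 6 were tested, Kmt2a and Dot1l among them, with medians of -0.302 points in cMyc-Bcl2 and 0.590 points in MLL-AF9. Of 7 upstream regulators 1 was tested, Rara, which encodes a retinoic acid receptor. Over its 2 windows it averaged 16.2% in cMyc-Bcl2 knockin and 8.31% in cMyc-Bcl2 WT leukaemias, a mean difference of 7.90 points. One of the windows, with 9 CpGs, averaged 31.9% in cMyc-Bcl2 knockin and 15.7% in cMyc-Bcl2 WT leukaemias (adjusted p = 0.0143), a called rise of 16.2 points.

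The windows elsewhere whose 10 library levels came nearest to the cluster's means, among 13533 with at least 10 CpGs, were on chromosomes 6 and 4. The nearest, chr6:21802012-21802663 with 20 CpGs, differed by a root mean square of 2.93 points and averaged 17.2% in MLL-AF9 knockin, 12.9% in MLL-AF9 WT, 27.5% in cMyc-Bcl2 knockin and 11.1% in cMyc-Bcl2 WT leukaemias. The windows at chr4:114580062-114580928 and chr4:148265153-148265582 followed at 2.94 and 3.59 points. These windows were picked for their likeness, and in both windows on chromosome 4 the cMyc-Bcl2 WT mean lay above the MLL-AF9 WT mean, at 14.5% against 13.2% and at 15.2% against 13.0%, unlike in the cluster.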

How the data were processed

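DNA methylation was measured by RRBS in 10 libraries of 4 groups, taken from the oncogene and knockin labels. The submitters' processing notes name build mm9, Bismark 0.7.4, methylKit, Trim Galore 0.2.2 and CASAVA, with settings not given in the sources used here. Every file deposited by the authors lists a position with a pair of whole-number read counts, methylated and unmethylated. Each chromosome comes as 2 ascending blocks, read here as the plus and the minus strand, and the strands of a CpG were joined.

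CpGs needed 5 reads in every library. The cluster mean weighted each CpG once. Windows of 1000 bp on the 19 autosomes, with 3 or more CpGs, had their reads added up and fitted as a quasi-binomial logistic model of the 4 groups in R 4.3.3. Its dispersion was moderated with limma 3.58.1 and held at 1 or above, with an F-test and Benjamini-Hochberg adjustment over all 42952 windows. The code was tested on simulated data with 200 changed windows of each size among 42952, and the false shares belong to that setting. There 14.1% of the calls for knockin against WT in cMyc-Bcl2 were false, more than the threshold allows. The share was also above the threshold for the difference between the effects (10%), between knockin leukaemias (9.89%) and for the mean effect (5.17%). It was below for knockin against WT in MLL-AF9 (2.46%) and between WT leukaemias (4.91%). M-values used an offset of 0.5 reads. Python 3.11.15, numpy 2.4.6 and pandas 2.3.3 did the rest.

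The region, gene lists and tests were chosen with earlier results of these data known. Windows named were up to 8 called per contrast by size, then the largest differences without overlap (3 gains and 2 losses per leukaemia, 3 each way between WT leukaemias), and the 3 windows most like the cluster; windows beside a threshold, without a gain or with the widest range, and examples from the gene lists, were named after their values were seen. Promoter sequences from RefSeq were placed where at least 8 listed CpGs matched, none disagreed and no other start did as well: 374 of 936 promoters on chromosome 15 were placed, all 374 on the annotated strand and 0 out of order. Replicate numbers follow accession order. Each library counted once. Window levels of libraries in 1 group correlated at 0.966 to 0.985, which does not show whether they came from separate leukaemias. Alternatives changed coverage, window size, CpGs per window, weighting, thresholds, the test, the libraries fitted and, added after the data were seen, the strands and the libraries of high chromosome 15 depth.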

Additional observations from a re-analysis of the deposited data

How the results depend on the processing

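No paired analysis was possible because the replicate numbers only follow accession order. Leaving out each library in turn, the cluster mean difference between knockin and WT ranged from 5.83 to 8.79 points for MLL-AF9 and from 11.7 to 18.0 for cMyc-Bcl2. Their mean ranged from 9.30 to 12.4, and the difference between the effects from 4.78 to 11.1. That between cMyc-Bcl2 and MLL-AF9 ranged from -4.95 to 1.46 in WT and from 4.77 to 7.86 in knockin. The count of called Hoxc windows ranged from 0 to 12 for the knockin in cMyc-Bcl2, 1 to 9 for the mean effect, 0 to 1 between WT leukaemias, 0 to 3 between knockin leukaemias, and stayed at 0 for MLL-AF9 and for the difference between the effects. Without the 2 libraries of highest chromosome 15 depth, the cMyc-Bcl2 difference was 10.2 points, the difference between the effects 3.32 points, and 2 windows were called in cMyc-Bcl2, 2 for the mean effect and 4 between knockin leukaemias. Limma on M-values called 0 windows in cMyc-Bcl2 and 1 for the mean effect. A minimum of 20 reads, which leaves 10 windows, gave 3 and 1. An adjusted p under 0.1 with no minimum difference gave 15 for the mean effect, 1 between WT leukaemias and 6 between knockin leukaemias. Of all 42952 windows, this setting called 3168 higher and 52 lower for the mean effect. It called 1436 higher and 779 lower between WT leukaemias, and 3924 higher and 3809 lower between knockin leukaemias. Fits of only the libraries compared gave 0 windows in cMyc-Bcl2 and 1 between knockin leukaemias, and windows of 500 bp gave 1 there. Between knockin leukaemias, these settings called 1611 higher and 1282 lower of 51515 windows, and 2130 higher and 1196 lower of 48104 windows. Beyond the fewer samples or windows that some of these settings leave, the cause was not tested. With strands kept apart, the cluster mean differences were 7.57 points for MLL-AF9 and 16.0 for cMyc-Bcl2. Promoter methylation of Hoxc4 and Gm36878 had no value under any setting that needs 5 reads in every library. Depth limits the cluster to 359 CpGs, and at 20 reads to 56.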
